A study of Homo sapiens with 2 samples.

Results

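MT1E, MT1X, MT2A and MT3 are metallothionein genes, and they were taken by their symbol in the platform annotation of the array. These 4 genes, each with 1 probe set, were examined out of 14884 named genes on an array of 53617 probe sets. The samples were SNK6 cells, an established human line of NK/T-cell lymphoma that carries Epstein-Barr virus and was kept in medium with serum and interleukin-2. One culture had received romidepsin for 72 h (1 array), and the other had received romidepsin together with sildenafil for 72 h (1 array). Romidepsin, which blocks class I histone deacetylases, was therefore present in both samples, and sildenafil, a phosphodiesterase inhibitor, was the only labelled difference. The sample title abbreviates the second drug, which was taken to be sildenafil, the only other drug of the treatment protocol. No label used here states a dose, and no culture without romidepsin was analysed here, so the values do not measure the response to romidepsin itself. With 1 array per treatment no difference was tested, and no value carries a replicate error.

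Metallothioneins are small, cysteine-rich proteins whose thiols hold zinc and copper and can also bind cadmium. They buffer the free zinc of the cell and take up oxidants. Their genes lie together in a cluster on chromosome 16. They are switched on by the zinc-sensing transcription factor MTF1, which binds metal response elements in their promoters. Glucocorticoids and deacetylase inhibitors also induce several of them. MT2A and MT1X belong to the broadly expressed type 1 and type 2 genes, as does MT1E, while MT3 encodes a form best known from the brain.

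The promoter sequences of MT2A and MT1X are shown because only these 2 of the 4 genes had a promoter in the RefSeq table used. MTF1 acts through metal response elements, and whether these bear on the differences between the arrays was not tested. The 2 sequences come from RefSeq (GRCh38.p14, forward strand) and run from 250 bases before the gene start to 50 bases after it. MT2A is at chr16:56608334-56608633 and MT1X at chr16:56682220-56682519. Capitals mark each match, on either strand, to the core of the metal response element, searched as TGCGCNC or TGCACNC with N any base.
MT2A: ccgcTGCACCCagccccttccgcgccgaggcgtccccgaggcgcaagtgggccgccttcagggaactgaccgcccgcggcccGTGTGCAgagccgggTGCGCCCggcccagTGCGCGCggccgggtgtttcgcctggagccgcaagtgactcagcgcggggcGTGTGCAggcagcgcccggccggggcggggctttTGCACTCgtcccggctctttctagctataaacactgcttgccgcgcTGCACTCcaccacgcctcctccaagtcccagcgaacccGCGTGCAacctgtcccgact
MT1X: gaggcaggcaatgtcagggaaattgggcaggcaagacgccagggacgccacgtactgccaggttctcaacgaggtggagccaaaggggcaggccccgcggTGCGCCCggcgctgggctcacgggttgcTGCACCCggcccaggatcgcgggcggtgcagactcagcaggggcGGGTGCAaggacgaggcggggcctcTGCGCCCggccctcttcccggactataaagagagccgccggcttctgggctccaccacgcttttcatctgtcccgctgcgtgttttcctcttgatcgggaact
The MT2A promoter held 8 matches, 5 on the forward and 3 on the reverse strand, and none overlapped another. The MT1X promoter held 4 matches, 3 forward and 1 reverse, also without overlap. Of 27305 promoters of the same length, 29.3% held at least 1 match, 0.593% held at least 4 and 0.022% (6 promoters) held at least 8. Both also contained the GC box GGGCGG (2 matches each, against at least 1 in 44.6% of promoters) and 1 TATAAA (12% of promoters), searched on both strands. The RefSeq table gave a promoter for 2 of these 4 genes, and no sequence is shown for MT1E and MT3. A match describes the letters and does not show that a factor was bound.

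**Figure D1:**
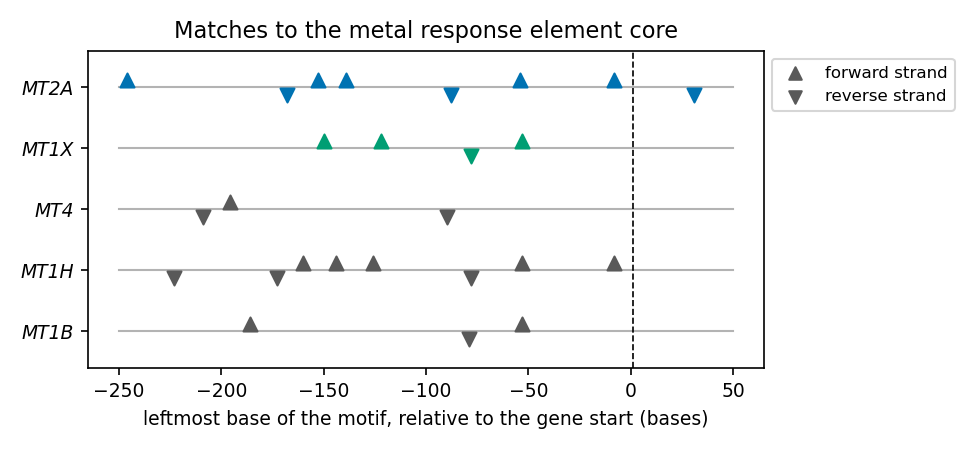
Matches to the metal response element core (triangles, pointing up on the forward and down on the reverse strand) in the 5 metallothionein promoters held by the RefSeq table, against the distance in bases from the gene start (dashed line). MT2A and MT1H held 8 matches each, MT1X 4, and MT4 and MT1B 3 each.

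The other metallothionein promoters in the table carried the element too. That of MT1H held 8 matches and those of MT4 and MT1B 3 each, and at least 3 matches occurred in 2.27% of all promoters. In MT1X, MT1H and MT1B a forward match began 53 bases before the gene start, and in MT2A 1 began 54 bases before it. MT2A and MT1H had differences of -0.16 and 0.34 on the log2 scale between the arrays. The MT1H signal was low (2.49 without and 2.83 with sildenafil). Any relation between the number of matches and the difference was not tested.

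MT2A, MT1X and MT3 gave slightly lower signals with sildenafil, and MT1E gave a higher one. MT2A, the type 2 gene, had a log2 signal of 7.87 with romidepsin alone and 7.71 with sildenafil added, a difference of -0.16 (1.12-fold lower). MT1X, a type 1 gene, had 7.86 without and 7.72 with sildenafil, a difference of -0.14 (1.10-fold lower). MT3 had 4.15 without and 3.98 with sildenafil, a difference of -0.17 (1.12-fold lower). In each of the 3 genes the brighter array was less than 25% above the dimmer one. MT1E, another type 1 gene, had a log2 signal of 4.2 without and 4.57 with sildenafil. It was 1.29-fold higher, a difference of 0.37, and was the only 1 of the 4 with a higher signal on the combination array. The signs of all 4 differences were the same under median centring, quantile normalization and lowess centring of the arrays.

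**Figure D2:**
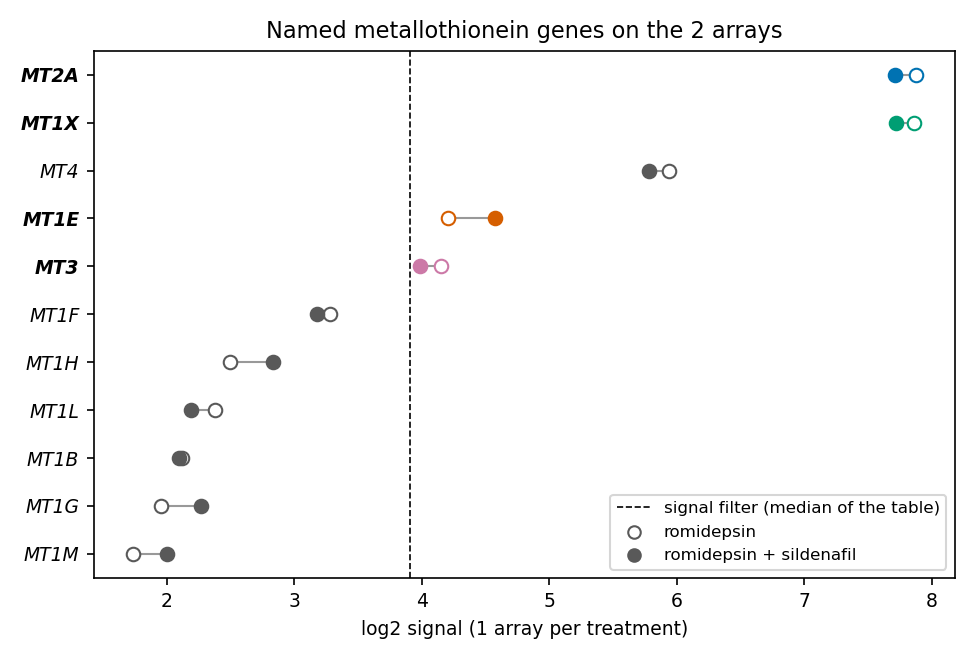
Log2 signal of the 11 named metallothionein genes with romidepsin (open circles) and with romidepsin plus sildenafil (filled circles), 1 array each, with MT1E, MT1X, MT2A and MT3 in colour and the signal filter of 3.91 dashed. MT2A and MT1X moved slightly to the left and MT1E, from 4.2 to 4.57, to the right. Signals of different genes depend on their probes and are not compared in level.

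Of the 4 genes, 0 differed by at least 1.5-fold, whereas 1.99% of the 10081 named genes past the signal filter did (1.02% higher and 0.972% lower with sildenafil). The filter asked for a signal of at least 3.91, the table's overall median, on the brighter of the arrays, and all 4 genes passed it. A second, smaller rule of size asked that the linear signal of the brighter array be at least 25% above that of the dimmer one. By this rule 1 of the 4 was higher with sildenafil, beside 6.69% of all genes past the filter, and 0 were lower, beside 6.04% (12.7% in either direction). By the same rule the split of all genes was 674 higher and 609 lower as deposited, and 562 higher and 779 lower after median centring. The median difference of the 4 genes was -0.15, beside -0.01 for all genes past the filter. Their mean was -0.02, since MT1E offsets the other 3 genes. By sign alone, 1 of the 4 was higher and 3 lower, beside 4757 higher (47.2%) and 5282 lower (52.4%) of all genes past the filter.

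Differences between these arrays were wider and leaned higher among dim genes, so each gene was set beside the genes in its own decile of mean signal. MT1E lay in the second-dimmest decile, where differences had a median of 0.06 and an SD of 0.26, and where 12.6% of genes were at least 25% higher with sildenafil. Of the 1008 genes of that decile, 93 (9.23%) were further above 0 than MT1E. MT1E was 1.21 SD above the median of its decile. MT2A and MT1X lay in the second-brightest decile, with a median of -0.03, an SD of 0.14 and a central 95% from -0.33 to 0.21. There, 163 of 1008 genes (16.2%) were further below 0 than MT2A, and 190 (18.8%) were further below than MT1X. MT3 lay in the dimmest decile, where the SD was 0.34 and 230 of 1009 genes (22.8%) were further below 0. Of those 1009 genes, 619 passed the filter on 1 array only, a selection that bears on that spread, while MT3 and the other 3 metallothioneins passed it on both. When the filter was instead applied to the arrays' mean, a choice made after seeing the data, the SD of the dimmest decile was 0.28 and 169 of 977 genes (17.3%) were further below 0 than MT3. All 4 differences were inside the central 95% of genes of like signal with either filter. These shares describe the pair of arrays and are not error rates.

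**Figure D3:**
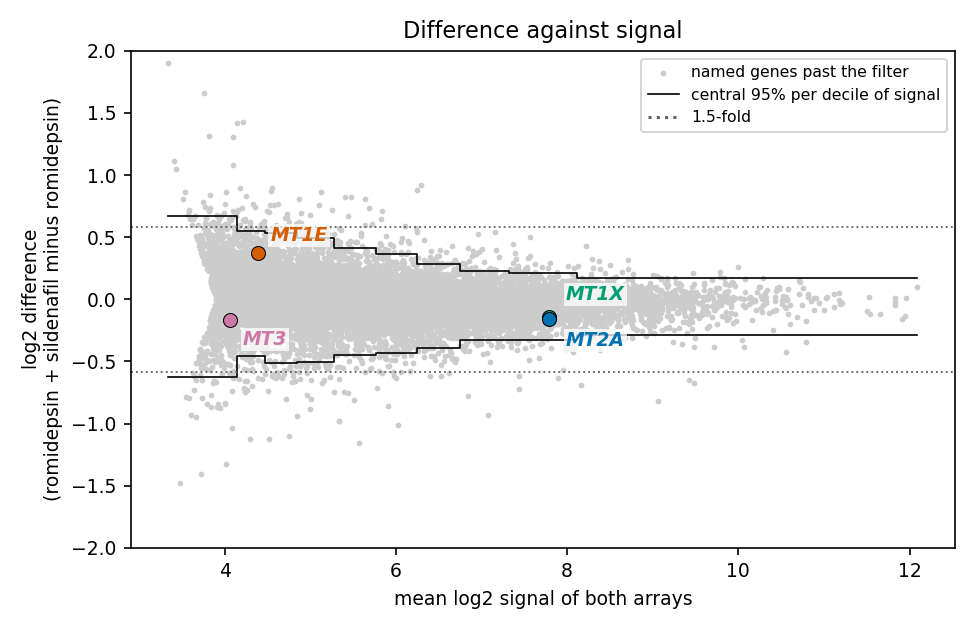
Log2 difference (romidepsin plus sildenafil minus romidepsin) against mean log2 signal for the 10081 named genes past the filter (grey), with the central 95% in each decile of signal (solid steps) and 1.5-fold (dotted). All 4 metallothioneins lie between the steps, MT1E above 0 at 0.37 and the other 3 between -0.17 and -0.14.

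The scaling of the arrays mattered most for MT2A and MT1X. Their differences of -0.16 and -0.14 became -0.10 and -0.08 after quantile normalization, and -0.19 and -0.17 after median centring. MT3 ranged from -0.21 (lowess centring) to -0.17 (as deposited), and MT1E from 0.33 (lowess centring) to 0.37 (as deposited). MT1E therefore stayed past the 25% rule, which is 0.32 on the log2 scale, under each of these scalings.

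The annotation named 7 further metallothionein genes, of which 1 passed the filter. MT4, a form known from stratified epithelia, had 5.94 without and 5.78 with sildenafil, a difference of -0.16. The 6 under the filter were split evenly between the directions, with 3 higher and 3 lower. MT1H (2.49 without and 2.83 with, a difference of 0.34), MT1G (1.96 and 2.26, 0.31) and MT1M (1.73 and 2.0, 0.27) had higher signals with sildenafil. MT1L, a transcribed pseudogene, had 2.38 and 2.19 (-0.20), MT1F 3.28 and 3.18 (-0.11) and MT1B 2.12 and 2.10 (-0.02). Among all 4803 named genes under the filter, 58.1% had a higher signal with sildenafil and the SD of the differences was 0.26. Over the 11 named metallothioneins, 4 were higher and 7 lower. Those higher were all type 1 genes with a log2 signal under 5 on both arrays. This does not set them apart, since MT1B, MT1F and MT1L, also of type 1, and MT3 were under 5 and lower. Metallothionein genes are close in sequence, so a probe set may pick up transcripts of its relatives; this was not tested. Among the 22 metallothionein symbols looked for, MT1A and 10 others were not named in the annotation and are not analysed here.

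In genome order, the differences changed sign along the cluster. MT4, MT3, MT2A and MT1L, which come first, were at -0.16, -0.17, -0.16 and -0.20. MT1E and MT1M, which follow, were at 0.37 and 0.27. MT1B and MT1F were at -0.02 and -0.11, MT1G and MT1H at 0.31 and 0.34, and MT1X, the last, at -0.14. Neighbouring genes of the cluster thus had differences of either sign, and 6 of these 11 genes lay under the filter.

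**Figure D4:**
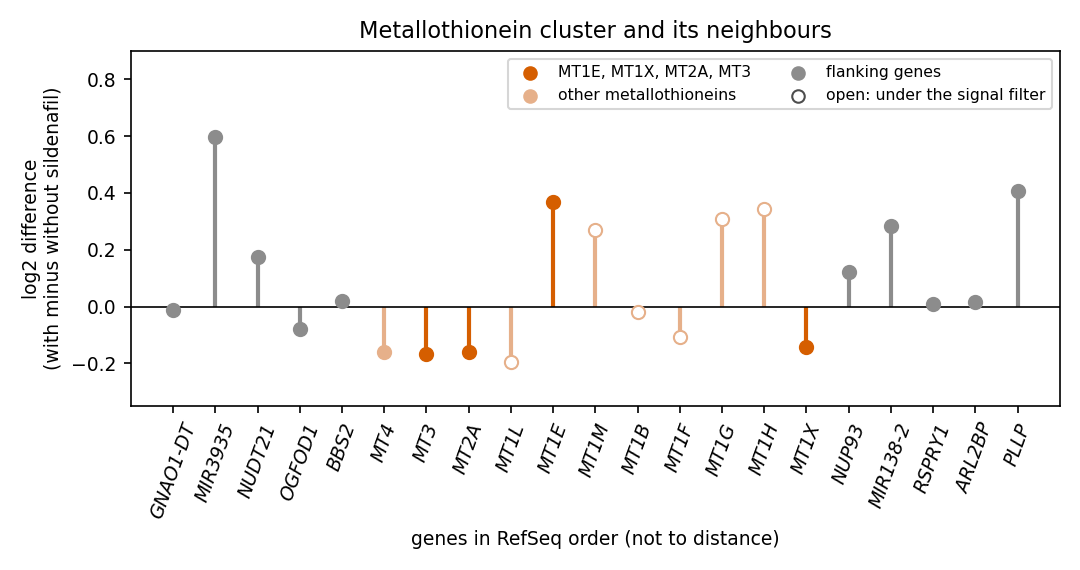
Log2 difference of the 11 named metallothionein genes (orange) and of the 5 nearest named genes past the filter on each side (grey), in RefSeq order and not to distance, with open circles for genes under the filter. MT4 to MT1L lie between -0.20 and -0.16, and MT1E is the highest of the cluster at 0.37.

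The genes flanking the cluster had differences from -0.08 to 0.60, with a median of 0.07 over 10 genes. Of these, 8 were higher and 2 lower as deposited, and 5 higher and 5 lower after median centring. As deposited, 47.2% of all genes past the filter were higher. MIR3935, PLLP and MIR138-2, which had the largest differences, were dim, and dim genes leaned higher on these arrays. PLLP passed the filter only on the combination array, where it is higher, and without it 7 were higher and 2 lower, with a median of 0.02. NUDT21, a subunit of the pre-mRNA cleavage factor, was at 0.17 (10.20 without and 10.37 with sildenafil). OGFOD1, a prolyl hydroxylase, was at -0.08, and NUP93, a scaffold protein of the nuclear pore that directly follows MT1X in this series, was at 0.12. BBS2, a protein of the ciliary BBSome, was at 0.02, but at -0.01 after median centring, and likewise RSPRY1 (0.01) and ARL2BP (0.02) turned to -0.02 and -0.01. PLLP, which encodes the myelin protein plasmolipin, was at 0.41 (3.61 without and 4.02 with), MIR138-2 at 0.28 and GNAO1-DT at -0.01. MIR3935 was at 0.60 (4.0 without and 4.60 with), 1.51-fold higher as deposited, and lay under 1.5-fold after each other scaling.

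MTF1, which activates the metallothionein genes in response to zinc, had 8.32 without and 8.22 with sildenafil, a difference of -0.09. In its decile of signal, the brightest, 251 of 1008 genes were further below 0. The 8 measured genes listed for metal-sensing transcription were MTF1, SP1, USF1, NFE2L2, KEAP1, STAT3, PHF2 and PHF21A. Whether each of them acts on metallothionein genes was not tested. Of these 8 genes, 4 were higher and 4 lower, beside 47.2% of all genes higher. In 0 of them were the arrays 25% apart, beside 12.7% of all genes past the filter. All 8 lay in the 4 brightest deciles, where such differences were rarer. Depending on the decile, 0.10% to 1.09% of genes there were at least 25% higher and 1.29% to 5.16% at least 25% lower. The median of the 8 genes was -0.03, and it turned to 0.02 after quantile normalization and 0.01 after lowess centring. After median centring it was -0.06, with 2 higher and 6 lower. SP1, which binds GC boxes, was at 0.20 (7.34 without and 7.54 with), and NFE2L2, the oxidant-responsive factor NRF2, at -0.18 (7.18 and 7.0).

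Among zinc and copper handling genes, few could be read. Of 11 listed zinc exporters only TMEM163, a zinc efflux protein, was named, at -0.29 (6.34 without and 6.05 with sildenafil). SLC30A1, the plasma membrane exporter that MTF1 also activates, and the 14 listed zinc importers were not named and are not analysed here. Of 15 copper genes 7 passed the filter, with 3 higher and 4 lower, beside 47.2% of all genes past the filter higher. Their median was -0.02 (-0.05 after median centring). It was 0.04 after quantile normalization and 0.03 after lowess centring, with 4 higher and 3 lower under both. Over all 9 named copper genes, 3 were higher and 6 lower, with a median of -0.08. COX17, the copper chaperone of cytochrome c oxidase, was at -0.39 (6.60 without and 6.21 with), 1.31-fold lower. It was the only 1 of the 7 past the 25% rule, which 12.7% of all genes past the filter passed. SCO2, which also delivers copper to cytochrome c oxidase, was at 0.15, and CCS, the copper chaperone of superoxide dismutase, at -0.13.

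Of 10 measured genes that respond to metal or oxidant stress, 7 were higher with sildenafil and 3 lower, beside 47.2% of all genes higher. Their median was 0.09 (0.06 after median centring and 0.14 after quantile normalization). Of the 10, 0 passed the 25% rule, which 12.7% of all genes past the filter passed. HMOX1, heme oxygenase 1, was at 0.28 (4.30 without and 4.57 with), SRXN1, sulfiredoxin, at 0.21 and the cochaperone BAG3 at 0.18. HMOX1 and BAG3 lay in the second-dimmest decile, where differences had a median of 0.06 and an SD of 0.26. In that decile 12.6% of genes were at least 25% higher and 7.64% at least 25% lower. In the brightest decile, which held TXN, these shares were 0.10% and 1.29%. The lowest of the 10 was TXN, at -0.14 (10.76 without and 10.62 with). The 9 measured genes of thiol redox chemistry, which can release zinc from metallothionein, had a median of 0.02 (-0.01 after median centring), with GPX1 at -0.32, TXNIP at -0.31 and NOS1 at 0.17. GPX1 is a glutathione peroxidase, TXNIP an inhibitor of thioredoxin and NOS1 a nitric oxide synthase. Glucocorticoid-responsive genes past the filter were 2 higher and 3 lower, with a median of -0.02. It was 0.02 after quantile normalization, 0.01 after lowess centring and -0.05 after median centring. Over all 8 named genes, 4 were higher and 4 lower, with a median of 0.07. Under the filter lay ZBTB16 at 0.43 (3.46 without and 3.88 with sildenafil), KLF9 at 0.34 (3.53 and 3.87) and ERRFI1 at -0.01. DDIT4, an inhibitor of mTORC1 signalling, was at 0.17, the kinase gene SGK1 at 0.15 and the phosphatase gene DUSP1 at -0.10.

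**Figure D5:**
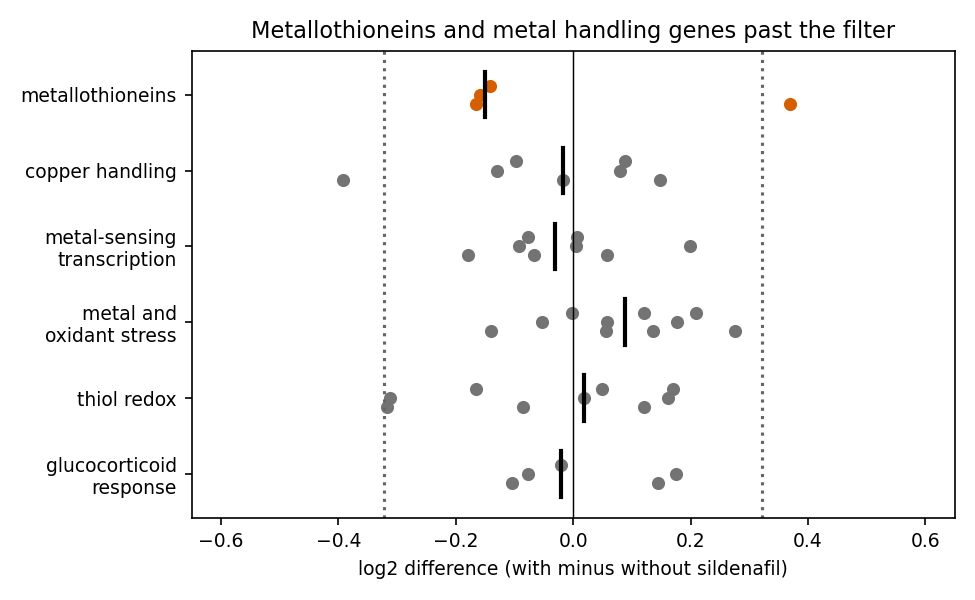
Log2 difference of each gene past the filter in 6 lists (points), with list medians as vertical bars and the 25% rule dotted. MT1E at 0.37 and COX17 at -0.39 are the only points outside the dotted lines, beside 12.7% of all genes past the filter. That share was larger among dim genes and smaller among bright ones.

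By the pair of signals on the 2 arrays, the nearest genes to MT1X were ZNF644 (distance 0.011 on the log2 scale) and MT2A (0.013). Those nearest to MT2A were TTC14 (0.011) and MT1X (0.013). MT3 was nearest to TMEM233 (0.0044) and ZNF701 (0.0087), and MT1E to ASTN1 (0.020) and LINC01743 (0.029). This distance, taken over 2 arrays, includes the signal level, which depends on the probes of each gene, so it shows no likeness in transcript level or in response.

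The deposited signals had medians of 3.89 (romidepsin) and 3.92 (combination). The cell type was checked against NK markers, of which 9 of 16 were named and 9 passed the filter, 4 higher and 5 lower with sildenafil. PRF1, perforin, was at 8.83 and 8.81 without and with sildenafil, CD2 at 8.10 on both arrays and NKG7, a cytotoxic granule protein, at 8.50 and 8.23. GNLY, granulysin, was at 3.82 and 3.92, past the filter on the combination array only, and TYROBP, an adaptor of NK receptors, at 4.23 and 4.33. Of the markers of other cell types that were named, 5 of 5 T cell, 2 of 2 B cell, 4 of 7 myeloid and 3 of 6 epithelial or fibroblast genes also passed, so passing the filter does not set the NK markers apart. In RNA from whole cultures, fewer cells of a type and less RNA per cell cannot be told apart, and with 1 array per treatment any array batch and sildenafil cannot be told apart.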

How the data were processed

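Total RNA was amplified with a whole-transcript kit and labelled with biotin, per the labels' protocols. The authors deposited 1 table of log2 signals, 1 column per array. The log base is not written there and was taken as 2, because the highest signal, 13.05, exceeds what a natural log of 16-bit data could give (11.1). How probes were summarised and normalized is not given in the sources used here. When sorted, the columns differed nowhere by more than 0.15, so a shift shared by most transcripts would not be seen.

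Gene names came from the platform annotation in GEO (16098 probe sets with 1 symbol, 0 with several, 37519 unnamed). The brightest probe set stood for the 779 genes with several. Differences are the combination array's log2 signal minus the romidepsin array's. Gene order came from RefSeq (GRCh38.p14), with no coordinates taken for probe sets. The members, lists and thresholds were chosen with earlier results of these data known. Named genes were the members, other metallothioneins, MTF1, up to 3 members of each list past the filter with the largest difference, up to 5 flanking genes on each side, and the 2 nearest by Euclidean distance. TXN, ZBTB16, KLF9, ERRFI1 and the rest of the metal-sensing list were named in addition. Genes used to check the cell type were named as markers. The scalings and the 1.5-fold count were tested on simulated data with the same SD at every signal level. In these arrays the SD of differences was 0.34 in the dimmest decile and 0.12 in the brightest. The 25% rule, the filter and the deciles were not tested in this way. Alternatives were median centring, quantile normalization, lowess centring (span 0.3), the mean of probe sets, other filters and the mean of lists. Precision is limited by the number of arrays. Python 3.11.15, numpy 2.4.6, pandas 2.3.3, statsmodels 0.14.6 and matplotlib 3.10.9 were used.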

Additional observations from a re-analysis of the deposited data

How the results depend on the processing

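No paired analysis was possible because each treatment has 1 array. Over 7 alternatives, 150 values were recomputed, and none moved by 0.1 or more on the log2 scale or, for a count or share, by over 1.5 times. The differences of MT1E, MT1X, MT2A and MT3 kept their sign in the 6 alternatives that bear on single genes (the mean in place of the median bears on lists only), and there the counts of 1 gene by the 25% rule and 0 at 1.5-fold were the same. Filters and the averaging of probe sets could not change these 4 differences or those of the other 7 named metallothioneins, since each has 1 probe set. Median centring shifts every gene's difference by the same constant, set by the array medians of 3.89 and 3.92. Part of the 150 values could therefore not have moved by 0.1, and their staying is no measure of robustness. The medians of the copper, transcription, glucocorticoid and thiol lists changed sign in 10 values, all between -0.04 and 0.07. The zinc importers gave no value. Leaving PLLP out of the flanking genes, a choice made after seeing the data, took their median from 0.07 to 0.02. At 1.5-fold the genes past the filter were 103 higher and 98 lower as deposited, and 78 higher and 116 lower after median centring. The table holds no detection calls, so how far MT3, MT1E and the dimmer metallothioneins lie above background is unknown.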
